A study of Macaca mulatta with 17 samples.

Results

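The genes described here are those of major histocompatibility complex (MHC) class II antigen presentation in the fetal rhesus macaque uterus. They were taken from the array annotation as every gene whose symbol begins with HLA-D or MAMU-D, together with CD74 and CIITA, which gave 15 genes and 19 probes among the 20217 probes and 16442 gene names of the array. Within this group, measured values entered in 1 way: for a gene with several probes, 1 probe was chosen by its mean signal over all arrays, the brightest being kept. The genes were grouped when earlier results of these data were known, among them their rise between the ages in control uteri. The values between ages below, at either treatment, are therefore a description of that rise and not independent evidence of it.

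Class II molecules are pairs of an alpha and a beta chain (HLA-DR, HLA-DQ and HLA-DP) that carry peptides from the endosomes to the cell surface, where CD4 T cells read them. Macrophages, dendritic cells and B cells make them constitutively, and many other cells make them when exposed to interferon gamma. CIITA is the transactivator that switches the whole group on, CD74 is the invariant chain that fills the groove until the molecule reaches the endosome, HLA-DM exchanges the remaining fragment for peptide, and HLA-DO holds HLA-DM back.

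Total RNA from a sagittal portion of the uterus, fundus to cervix, of each of 17 female fetuses was hybridized singly to 1-color Agilent rhesus arrays. The dams received a daily fruit treat with either ethanol vehicle (controls) or 400 µg/kg deuterated bisphenol A (BPA), an estrogenic industrial chemical, from gestation day (GD) 50 to 100 or from GD100 to term. Arrays came from 5 control and 5 BPA-exposed uteri at GD100, and from 4 control and 3 BPA-exposed uteri at term, GD165 to 168 (GD165 below). The study left stillborn fetuses out of the arrays. There were 5 in the GD165 group, 3 of them BPA-exposed and the others controls, so the GD165 values are those of liveborn animals only. GD100 fetuses were delivered by cesarean and GD165 animals vaginally, with euthanasia up to a day after birth, so age, mode of delivery and dosing window cannot be told apart in the comparisons between ages. Each value comes from a separate animal, labeled below by its group and replicate number.

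The arrays were of similar quality, with 83.8% to 89.0% of spots well above background. The 17 arrays lay on 6 slides, and the GD165 BPA-exposed uteri lay on 2 of them. Levels are given as log2 signal after each array was set to the same 75th percentile, so 1 unit is a doubling. In whole-organ RNA, more cells of a kind and more RNA per cell cannot be told apart. Of the markers of uterine tissue, 9 of 10 were well above background on all 17 arrays.

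Most probes of the group were designed on human transcripts (15 of 19), and the other 4 on rhesus cDNA. The sequences of 3 of the DR beta probes are shown whole because DR beta genes are close copies of each other and the array annotation assigns some of these probes to several of them, so that the DR beta names below are those of the annotation and the genes cannot be told apart. They are printed in lower case, 5′ to 3′.
HLA-DRB3: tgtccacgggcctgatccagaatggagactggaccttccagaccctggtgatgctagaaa
HLA-DRB1, second probe (rhesus cDNA): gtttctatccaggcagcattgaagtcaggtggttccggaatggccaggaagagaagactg
HLA-DRB5: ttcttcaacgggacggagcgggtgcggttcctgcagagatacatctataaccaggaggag

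For the genes on which the other results turn, the first 30 of the 60 bases of each probe identify what was measured.
HLA-DQA1 (rhesus cDNA): gtgcatcgccatctacaggagagaagaatg
CD74: tctgctgacccctagttccctctgctcagc
CIITA: ggcagatagaggaaaagctgctgagtgttg
The array carries this HLA-DQA1 sequence a second time under another probe name, and the levels of the 2 copies differed by at most 0.28 on any array. The brighter HLA-DRB1 probe and the second HLA-DRB5 probe overlap: bases 31 to 60 of the first are bases 1 to 30 of the second, and this shared run is given in capitals.
Shared by HLA-DRB1 and HLA-DRB5: CACATGACATTATTAAATGTTTCTCAAAGA

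Class II genes were higher at GD165 than at GD100 in both treatment groups. In controls, 8 of the 15 genes passed the threshold (limma, Benjamini-Hochberg adjusted p under 0.01 over all probes) and all 8 were higher at GD165, whereas 11.5% of all probes passed in either direction and 6.32% passed as higher. In BPA-exposed uteri, 7 of 15 passed, all higher, against 9.68% of all probes in either direction and 4.82% as higher. The 7 genes called in BPA-exposed uteri (CD74, HLA-DRA, HLA-DRB3, HLA-DRB4, HLA-DRB5, HLA-DQA1 and HLA-DMA) made up 7 of the 8 called in controls, the other being HLA-DMB. Among these, HLA-DRB3, HLA-DRB4 and HLA-DRB5 are counted by the array annotation, and their probes may not measure separate genes. The median log2 fold change of the 15 genes was 1.70 in controls and 1.50 in BPA-exposed uteri, and that of all probes was 0.0046 and -0.047. The lowest GD165 level lay above the highest GD100 level for 9 of 15 genes in controls, where 9.51% of all probes did so, and for 9 of 15 in BPA-exposed uteri, where 11.7% did. The count in controls includes CIITA, well above background on 1 of 5 GD100 control arrays. That in BPA-exposed uteri includes HLA-DOA, well above background on 0 of 5 GD100 and 1 of 3 GD165 arrays. These controls and BPA-exposed animals are different animals, of the same series whose earlier results were known when the genes were grouped.

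Array slide bears on these counts. With slide as a fixed block, 4 of 15 genes passed in controls (HLA-DRB3, HLA-DRB4, HLA-DQA1 and HLA-DMA) and 0 of 15 in BPA-exposed uteri, where only 1 slide holds both ages; the probes called on the whole array fell to 1233 and 512 in the same fit. In that fit CD74 had a log2 fold change of 2.01 in controls (adjusted p = 0.021) and 2.20 in BPA-exposed uteri (adjusted p = 0.031), and HLA-DQA1 of 3.86 (adjusted p = 0.0050) and 3.87 (adjusted p = 0.013); GD165 control 5, alone on its slide, adds nothing to it. With slide as a random block the counts were 8 and 7. On the 3 slides that held both ages of the same treatment, with 1 array of each age in that treatment, all 11 genes with signal well above background in all 17 animals were higher at GD165, by a median of 1.70 and 2.24 on the 2 slides with controls and 1.90 on the slide with BPA-exposed uteri.

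**Figure D1:**
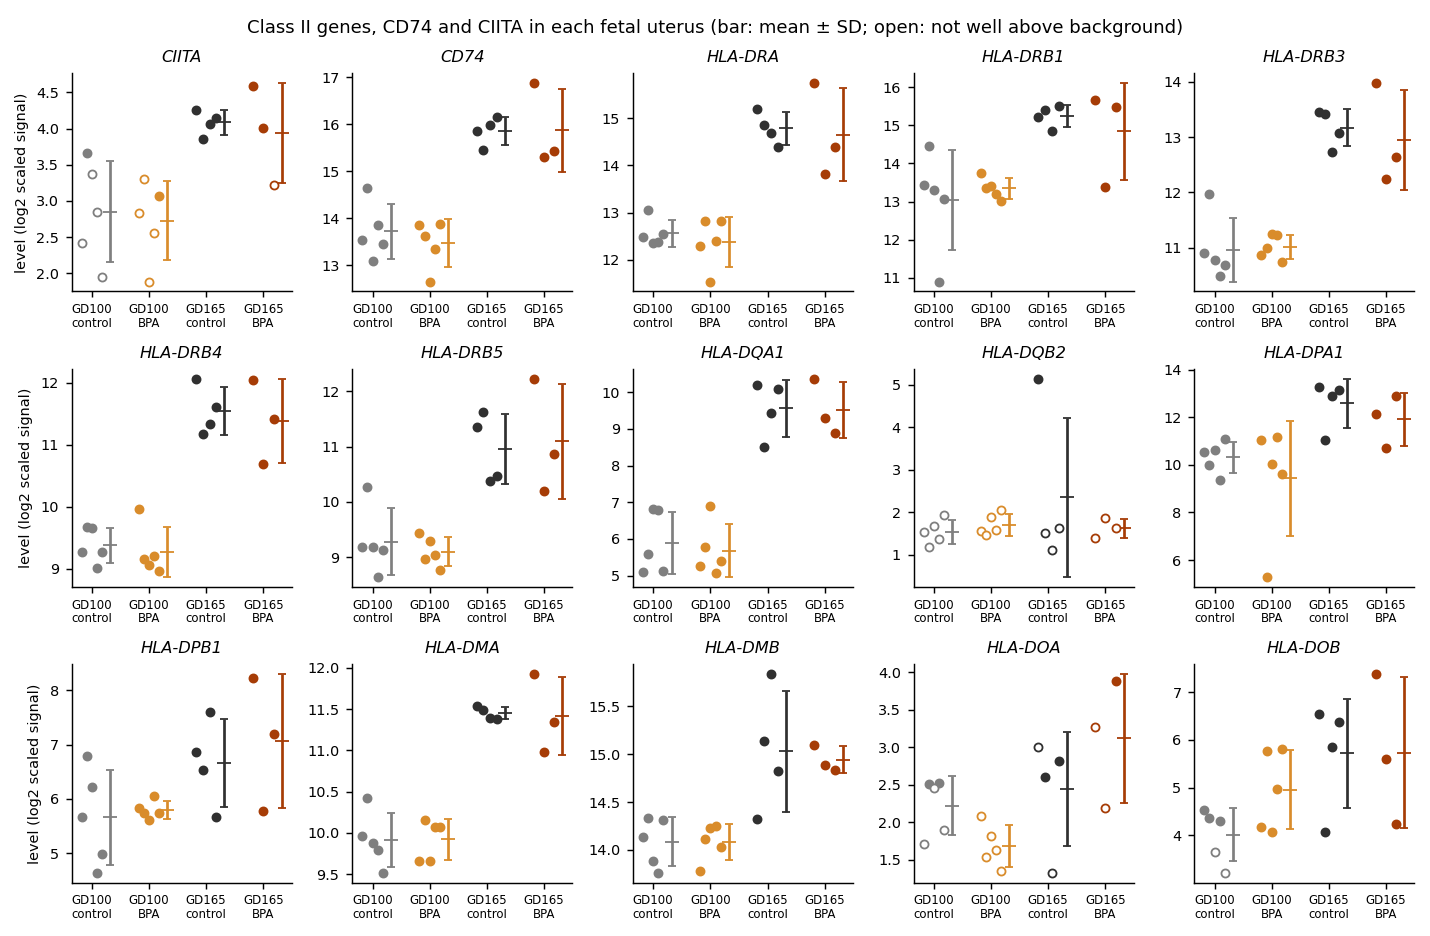
Level of each of the 15 genes (y axis, log2 signal scaled to a common 75th percentile; x axis, the 4 groups) in every uterus. Each point is 1 animal in replicate order, open points are arrays on which the probe was not well above background, and bars give the mean ± SD. For CD74, HLA-DRA, HLA-DRB3, HLA-DRB4, HLA-DQA1 and HLA-DMA, all 7 GD165 animals lie above all 10 GD100 animals, while HLA-DQB2 is an open point in 16 of 17 animals.

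CIITA, the transactivator, was measured close to the limit of the array. At GD100 its level was 2.42, 3.67, 3.38, 2.84 and 1.95 in controls 1 to 5 and 2.83, 3.30, 1.89, 2.56 and 3.07 in BPA-exposed animals 1 to 5. Only 1 of 5 arrays was well above background in each of these groups. At GD165 the level was 4.26, 3.86, 4.07 and 4.15 in controls 1, 3, 5 and 6 and 4.59, 4.0 and 3.22 in BPA-exposed animals 3, 4 and 5, and 4 of 4 and 2 of 3 arrays were well above background. Every GD165 control was above every GD100 control, whereas BPA-exposed animal 5 at GD165 lay within the GD100 range. The log2 fold change was 1.24 in controls (standard error 0.36, adjusted p = 0.022) and 1.21 in BPA-exposed uteri (standard error 0.39, adjusted p = 0.038), so neither passed the threshold. These values moved with the background correction, and 8 of the 10 GD100 arrays were not well above background. With normexp, a model-based background correction (offset 50), in place of the scanner software's, they were 0.18 (adjusted p = 0.14) and 0.06 (adjusted p = 0.64).

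CD74, the invariant chain, rose at both treatments. Its GD100 levels were 13.55, 14.65, 13.09, 13.87 and 13.46 in controls and 13.86, 13.63, 12.66, 13.34 and 13.88 in BPA-exposed animals. Its GD165 levels were 15.85, 15.46, 15.99 and 16.17 in controls and 16.88, 15.31 and 15.42 in BPA-exposed animals. The ages did not overlap, and the lowest GD165 control exceeded the highest GD100 control by 0.81. CD74 was 5.26-fold higher at GD165 in BPA-exposed uteri (log2 fold change 2.39, standard error 0.39, adjusted p = 0.00078) and 4.42-fold higher in controls.

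HLA-DRA, the single alpha chain with which all DR beta chains pair, had GD100 levels of 12.47, 13.06, 12.36, 12.37 and 12.55 in controls and 12.29, 12.82, 11.54, 12.41 and 12.82 in BPA-exposed animals. At GD165 they were 15.19, 14.86, 14.69 and 14.38 in controls and 15.74, 13.82 and 14.39 in BPA-exposed animals. All GD165 animals were above all GD100 animals, and the 3 BPA-exposed animals at GD165 spanned a wider range than the 4 controls. The log2 fold change was 2.22 in controls (standard error 0.34, adjusted p = 0.00033) and 2.27 in BPA-exposed uteri (standard error 0.37, adjusted p = 0.00075).

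The DR beta chains carry most of the variation between class II molecules of different animals, and rhesus monkeys differ from each other in which DR beta genes they carry. HLA-DRB4 had levels of 9.01 to 9.68 in GD100 controls, 8.96 to 9.97 in GD100 BPA-exposed animals, 11.17 to 12.07 in GD165 controls and 10.69 to 12.05 in GD165 BPA-exposed animals. It rose by 2.17 in controls (standard error 0.27, adjusted p = 7.3e-05) and by 2.12 in BPA-exposed uteri (standard error 0.29, adjusted p = 0.00027). HLA-DRB3 rose by 2.21 and 1.94 (adjusted p = 0.00028 and 0.0018) and HLA-DRB5 by 1.68 and 2.00 (adjusted p = 0.0068 and 0.0047). A second HLA-DRB3 probe, from rhesus cDNA, passed in neither age comparison in limma (1.76 and 1.98, adjusted p = 0.035 and 0.031). On that probe the ages overlapped in controls. With both probes averaged, HLA-DRB3 passed in both (1.99 and 1.96, adjusted p = 0.0036 and 0.0077).

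HLA-DRB1 differed between its probes. On the brighter probe, GD100 levels were 13.44, 14.45, 13.31, 10.90 and 13.07 in controls and 13.75, 13.36, 13.40, 13.19 and 13.02 in BPA-exposed animals, and GD165 levels were 15.21, 15.41, 14.85 and 15.51 in controls and 15.67, 13.38 and 15.47 in BPA-exposed animals. Control 4 at GD100 and BPA-exposed animal 4 at GD165 stood low in their groups, and the latter lay within the GD100 range. The log2 fold changes of 2.21 in controls (standard error 0.56, adjusted p = 0.011) and 1.50 in BPA-exposed uteri (standard error 0.61, adjusted p = 0.097) did not pass, and without BPA-exposed animal 4 at GD165 the latter was 2.23 (adjusted p = 0.028). On the second, rhesus cDNA probe, the same 2 animals had levels of 10.68 and 12.19, the lowest of their groups, but without overlap between the ages. That probe passed in controls, by 1.99 log2 units (standard error 0.33, adjusted p = 0.00067), and in BPA-exposed uteri, by 2.10 (standard error 0.36, adjusted p = 0.0012).

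The second HLA-DRB5 probe, which shares the run in capitals above with the brighter HLA-DRB1 probe, behaved differently again. Its levels ran from 7.41 to 9.94 in GD100 controls, 8.85 to 10.11 in GD100 BPA-exposed animals, 8.30 to 11.41 in GD165 controls and 6.80 to 12.16 in GD165 BPA-exposed animals. The lowest value of all 17 came from BPA-exposed animal 4 at GD165 and the highest from BPA-exposed animal 3 at GD165. Neither age comparison passed on it (log2 fold changes 1.28 and 0.27, adjusted p = 0.34 and 0.87), and with both probes averaged HLA-DRB5 passed in neither (1.48 and 1.13, adjusted p = 0.093 and 0.23). Between the 2 HLA-DRB5 probes the difference in level ranged from -0.68 to 3.39 over the arrays. Probe sequence was not compared with the DNA of these animals, and its part in these differences was not tested.

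**Figure D2:**
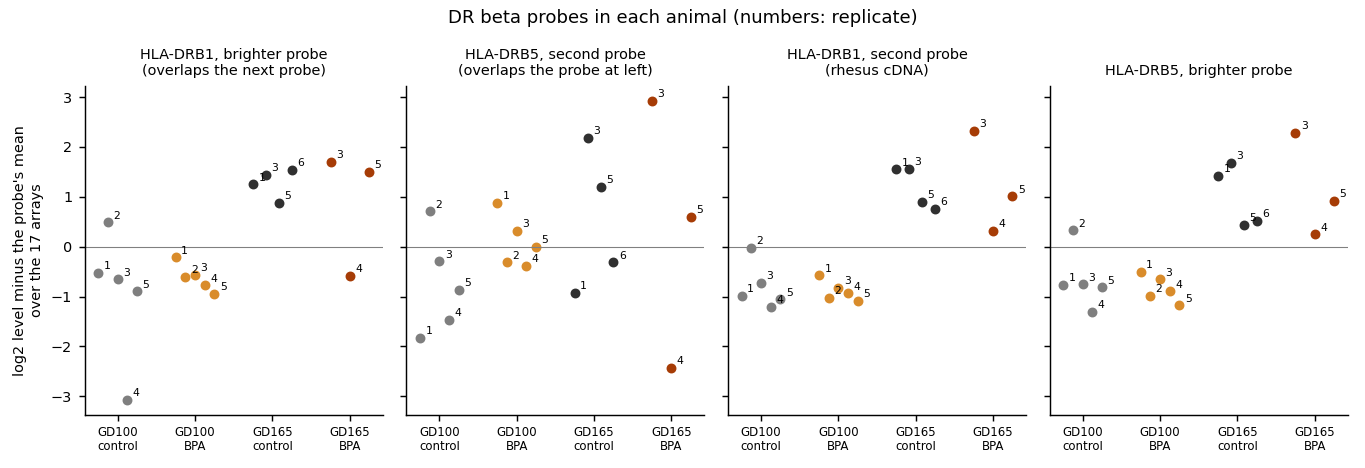
Levels of 4 DR beta probes in each animal (y axis, log2 level minus that probe's mean over the 17 arrays; x axis, group; numbers, replicate). The left pair of probes overlap by 30 bases. In both, BPA-exposed animal 4 at GD165 lies within or below the range of the GD100 BPA-exposed animals, whereas in the right pair the ages do not overlap within either treatment.

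HLA-DQA1, the DQ alpha chain, had the largest change of the 15 genes at both treatments. At GD100 its level was 5.11, 5.60, 6.81, 6.80 and 5.14 in controls and 5.26, 5.77, 6.89, 5.08 and 5.41 in BPA-exposed animals. At GD165 it was 10.20, 8.52, 9.43 and 10.10 in controls and 10.37, 9.30 and 8.89 in BPA-exposed animals. The ages were separated by at least 1.70 in controls and 2.00 in BPA-exposed animals, gaps larger than any SD within a group (0.72 to 0.86). It was 14.3-fold higher at GD165 in BPA-exposed uteri (log2 fold change 3.84, standard error 0.54, adjusted p = 0.00028) and 12.7-fold higher in controls (3.67, standard error 0.49). With normexp background correction the log2 fold changes were 2.68 (adjusted p = 0.00012) and 2.63, or 6.41-fold and 6.21-fold, so the size of the change moved with the background correction while both calls held. The other DQ probe, HLA-DQB2, was well above background on 1 array only, that of GD165 control 1, at 5.14 against 1.12 to 1.64 in the other 3 GD165 controls.

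The DP genes, which encode the third class II pair, varied widely between animals. HLA-DPA1 had levels of 10.55, 9.98, 10.61, 9.38 and 11.09 in GD100 controls and 11.04, 5.29, 10.06, 11.16 and 9.62 in GD100 BPA-exposed animals, and 13.25, 11.04, 12.91 and 13.13 in GD165 controls and 12.15, 10.71 and 12.91 in GD165 BPA-exposed animals. BPA-exposed animal 2 at GD100 was far below every other animal, although its probe was well above background. The log2 fold changes of 2.26 and 2.49 had standard errors of 0.96 and 1.04 and did not pass (adjusted p = 0.11 and 0.10). Without BPA-exposed animal 2 at GD100 the value in BPA-exposed uteri was 1.45, and without BPA-exposed animal 4 at GD165 it was 3.09. HLA-DPB1 had log2 fold changes of 1.01 and 1.27 (adjusted p = 0.17 and 0.11), with overlapping ages at both treatments, and 1.91 in BPA-exposed uteri without animal 4 at GD165.

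Of the endosomal partners, HLA-DMA had the smallest standard errors of the 15 genes. Its GD100 levels were 9.96, 10.42, 9.87, 9.79 and 9.52 in controls and 9.66, 10.15, 9.65, 10.07 and 10.07 in BPA-exposed animals, and its GD165 levels were 11.53, 11.49, 11.39 and 11.38 in controls and 11.92, 10.98 and 11.35 in BPA-exposed animals. The ages did not overlap. The gene was 2.91-fold higher at GD165 in controls (log2 fold change 1.54, standard error 0.19, adjusted p = 7.2e-05) and 2.82-fold higher in BPA-exposed uteri (1.50, standard error 0.21, adjusted p = 0.00027).

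HLA-DMB, its partner chain, rose by 0.94 in controls (adjusted p = 0.0079) and had a log2 fold change of 0.86 in BPA-exposed uteri (adjusted p = 0.023). In controls the ages touched, with GD165 control 1 at 14.33 and GD100 control 2 at 14.34, whereas in BPA-exposed animals the lowest GD165 level was 14.84 and the highest GD100 level 14.25. The modulator genes were dim. HLA-DOB ranged from 3.22 to 4.52 in GD100 controls and 4.07 to 6.56 in GD165 controls (log2 fold change 1.70, adjusted p = 0.065), and from 4.07 to 5.80 and 4.23 to 7.38 in BPA-exposed animals (0.77, adjusted p = 0.45). The first value was 0.61 with normexp background correction, and the second was -0.05 without BPA-exposed animal 3 and 1.53 without animal 5 at GD165. HLA-DOA was well above background on 5 of 17 arrays, never in GD100 BPA-exposed uteri and in 1 of 3 GD165 BPA-exposed uteri, and did not pass in either age comparison. Its log2 fold change was 0.22 in controls (adjusted p = 0.73), and no fold is given in BPA-exposed uteri, where 7 of 8 arrays were not well above background.

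**Figure D3:**
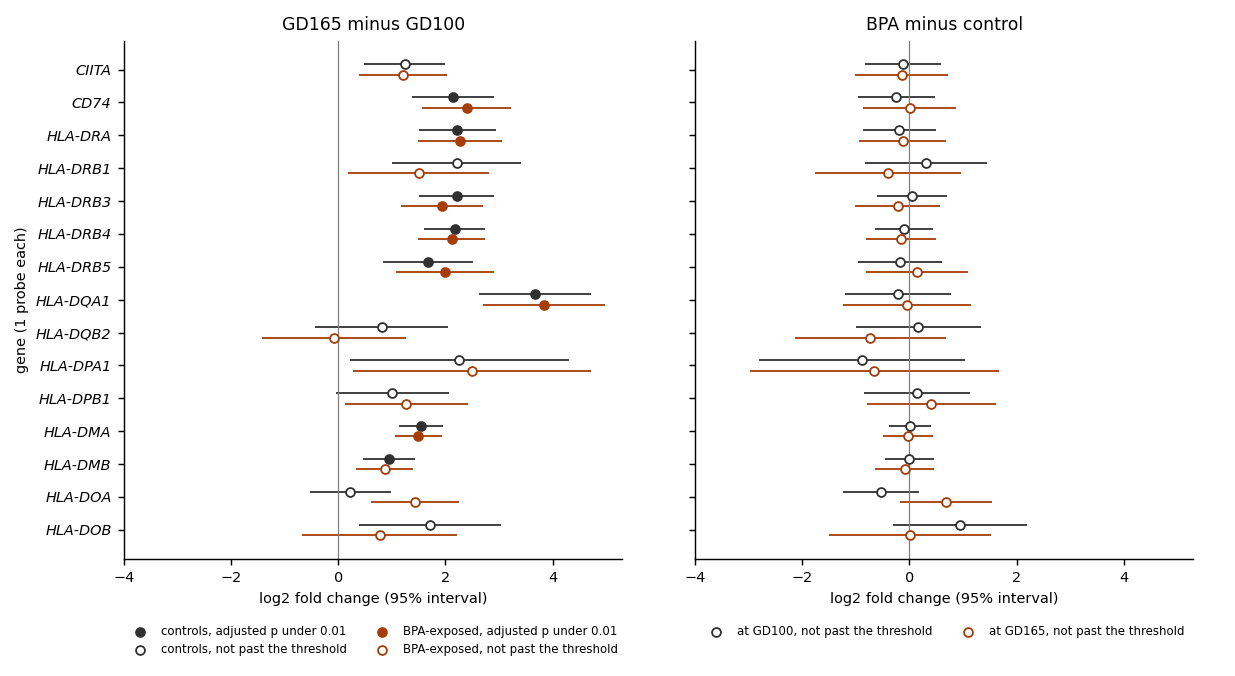
Log2 fold changes (x axis) of the 15 genes (y axis) with 95% intervals from the limma fit, between ages at left and between BPA-exposed and control uteri at right. Filled points passed an adjusted p of 0.01, and the HLA-DQB2, HLA-DOA, HLA-DOB and CIITA values rest partly on signals not well above background. At left, 14 of 15 BPA-exposed and 15 of 15 control values lie above 0 and HLA-DQA1 is farthest to the right, and at right every interval includes 0.

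No class II gene passed the threshold between BPA-exposed and control uteri at either age. At GD100, 0 of 15 genes passed in limma, with a median log2 fold change of -0.11, and at GD165, 0 of 15 passed, with a median of -0.087. Over the 11 genes well above background on all 17 arrays, the values ran from -0.89 (HLA-DPA1) to 0.31 (HLA-DRB1) at GD100 and from -0.66 (HLA-DPA1) to 0.40 (HLA-DPB1) at GD165. Single animals moved these values: HLA-DPA1 was 0.15 without BPA-exposed animal 2 at GD100, and without BPA-exposed animal 4 at GD165 HLA-DPA1 was -0.06, HLA-DRB1 0.33 and HLA-DPB1 1.05. Of all probes 0% passed at either age. At an unadjusted p of 0.05, 0 of 15 genes passed at each age, against 767 and 1740 of the 20217 probes. The groups overlapped for all 15 genes at both ages, whereas 0.782% of all probes at GD100 and 7.31% at GD165 had groups without overlap.

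The intervals show which sizes of change these animals could miss. For HLA-DMA, the tightest, the log2 difference was 0.01 (95% interval -0.37 to 0.39) at GD100 and -0.03 (-0.50 to 0.43) at GD165. CD74 differed by -0.25 (-0.97 to 0.47) at GD100 and by 0.0025 (-0.87 to 0.87) at GD165, and HLA-DRA by -0.19 (-0.87 to 0.49) and -0.13 (-0.95 to 0.69). HLA-DQA1 differed by -0.21 (-1.20 to 0.78) and -0.04 (-1.24 to 1.15). For HLA-DQA1 a log2 difference of -1 at either age lay within the intervals, and one as large as that between ages, in either direction, did not.

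The change between ages was also compared between treatments. The difference between the change in BPA-exposed and that in control uteri passed for 0 of 15 genes, and for 0% of all probes. It was 0.17 (95% interval -1.38 to 1.71) for HLA-DQA1, 0.25 (-0.88 to 1.38) for CD74 and 0.06 (-1.01 to 1.12) for HLA-DRA. Before adjustment 1 of 15 genes passed 0.05 by limma, HLA-DOA (log2 difference 1.21, adjusted p = 0.61), at levels mostly not above background and with a difference of -0.06 under normexp background correction, against 1584 of all probes.

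In every group except the GD100 BPA-exposed uteri, 1 animal had the highest level in most of the genes. In 2 of these groups another animal had the lowest level in most of the genes. Of the 11 genes well above background on every array, BPA-exposed animal 3 at GD165 had the highest level of its group in 10, the exception being HLA-DPA1, and BPA-exposed animal 4 at GD165 had the lowest in 9. Among GD100 controls, animal 2 was highest in 9 of 11 and animal 4 lowest in 7 of 11. GD165 control 1 was highest in 6 of 11, and no GD165 control was lowest in more than 4. In GD100 BPA-exposed uteri the extremes were spread: no animal was highest in more than 3 or lowest in more than 4. As deviations from the group means over 17 arrays, CD74 had a Pearson r of 0.76 with HLA-DRA and 0.69 with HLA-DMA. Its r was 0.08 with HLA-DMB, 0.04 with HLA-DQA1 and -0.02 with HLA-DPA1. CIITA and HLA-DOB each had an r of 0.66 with CD74, but were well above background on only 8 and 15 of 17 arrays. These values are descriptions, since the arrays share their scaling.

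Markers of immune cells are given beside the class II genes. Of all probes, 6.32% in controls and 4.82% in BPA-exposed uteri passed as higher. Beside these shares, 1 call in a list of 12 or 18 genes is not a result about that cell type. Of 18 macrophage and monocyte genes that were measured, 16 had positive values in controls and 17 in BPA-exposed uteri, with median log2 fold changes of 0.45 and 0.67; LYZ passed in both (1.99 and 1.66), C1QB passed in BPA-exposed uteri (1.07), and CD163 was well above background on no array. Their summed signal was 33455 to 61226 in GD100 controls, 40770 to 60897 in GD100 BPA-exposed, 55043 to 87208 in GD165 controls and 61469 to 105765 in GD165 BPA-exposed uteri. All 7 pan-leukocyte genes had positive values at both treatments (medians 0.76 and 0.93), with ARHGDIB passing in both, and their summed signal went from 26923 to 37115 over the GD100 animals to 50471 to 68762 over the GD165 animals.

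Among 12 dendritic cell genes, FCER1A, a chain of the IgE receptor also found on mast cells and basophils, rose by 3.76 in controls (adjusted p = 0.00014) and by 3.70 in BPA-exposed uteri (adjusted p = 0.00044), or by 1.40 and 1.46 with normexp background correction, and ITGAX passed in controls (0.71). The medians of that list were 0.51 and 0.11, and 5 of the 12 genes were well above background on all arrays. Its summed signal was 589 to 1106 over the GD100 animals and 757 to 1496 over the GD165 animals. The 12 T cell genes had medians of 0.43 and 0.14, with CD8A (1.02 and 1.07) and CD8B (1.36 and 1.74) passing at both treatments and CD3D well above background on no array. Their summed signal was 8932 to 15262 over the GD100 animals and 8739 to 12480 over the GD165 animals. The 12 B cell genes had medians of 0.19 and -0.42, with BLNK alone passing (0.70 and 0.75), and summed signals of 3310 to 5779 at GD100 and 3862 to 6028 at GD165. Beside 6.32% and 4.82% of all probes called higher, 1 call in 12 is not a result about B cells. The part of these cell types in the class II values was not tested.

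BPA-exposed animal 4 at GD165, low in most class II genes, was also the lowest of its group in the mean centered level of the macrophage (-0.09, against 0.63 and 0.70), dendritic cell (-0.26, against 0.51 and 0.49), T cell (-0.15, against 0.31 and 0.40) and pan-leukocyte (0.14, against 0.92 and 0.62) lists. GD100 control 2, high in most class II genes, lay inside the range of its group in the macrophage (-0.22, range -0.75 to 0.02), dendritic cell (-0.0064, range -0.69 to 0.03), T cell (0.07, range -0.51 to 0.07) and pan-leukocyte (-0.33, range -0.83 to -0.18) lists. Among the lists given below, this animal was the highest of its group in the interferon gamma (0.04), class I MHC (0.03), epithelial (0.14) and endosomal protease and peptide loading (-0.12) lists. It was the lowest of its group in the class II promoter factor (-0.14) and uterine (-0.34) lists. GD100 control 4, lowest in the class II mean (-1.24), was also the lowest in the macrophage and pan-leukocyte lists.

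**Figure D4:**
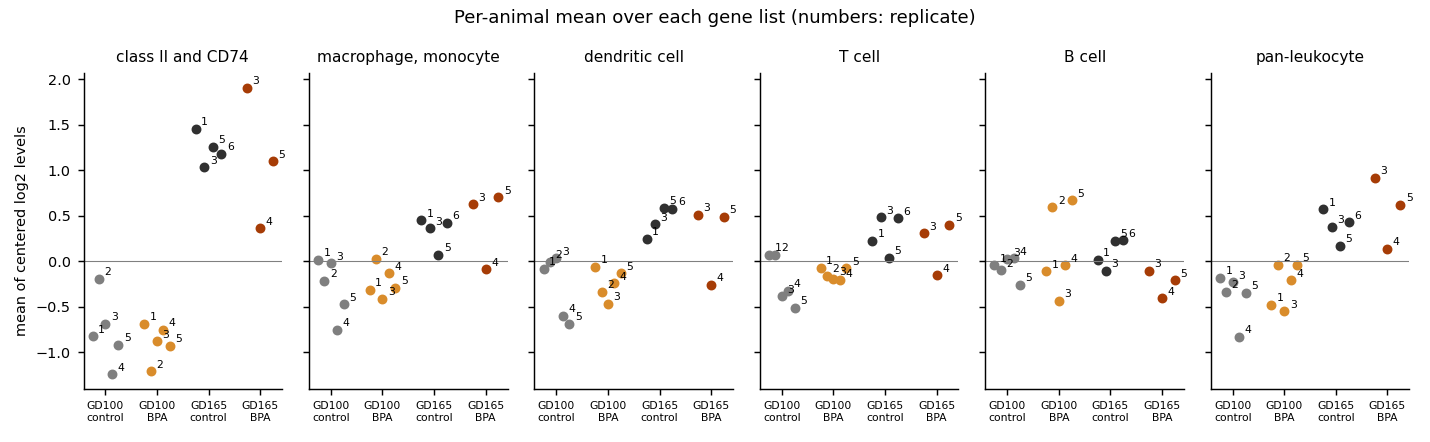
Mean centered log2 level (y axis) over each list in every animal (numbers, replicate), by group (x axis); the class II panel averages the 11 genes well above background on all arrays. The 7 GD165 animals lie above the 10 GD100 animals in the class II panel, and BPA-exposed animal 4 is the lowest GD165 animal in the class II, macrophage, dendritic cell, T cell and pan-leukocyte panels.

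Genes that act before and after class II transcription were examined next. Their counts stand against the shares of all probes called in controls and in BPA-exposed uteri, 11.5% and 9.68% in either direction and 6.32% and 4.82% as higher, by which a list of 5 or 7 genes would hold less than 1 call. The 7 factors that bind class II promoters with CIITA (the RFX subunits, NF-Y subunits and CREB1) had medians of -0.05 in controls and -0.09 in BPA-exposed uteri, and 0 of 7 passed in limma, with 1 and 0 at an unadjusted p of 0.05. RFX5 had log2 fold changes of -0.0061 (standard error 0.15) in controls and 0.08 (standard error 0.16) in BPA-exposed uteri. Of 10 genes of endosomal proteolysis and peptide loading, 7 rose and 1 fell in controls (median 0.65), and 4 rose in BPA-exposed uteri (median 0.54). IFI30, the thiol reductase that opens disulfide bonds of antigens, rose by 1.13 and 1.09, and CTSH, a cathepsin, by 0.82 and 1.04. CTSS, the cathepsin that trims the invariant chain, rose by 1.04 in controls, and MARCH1, a ubiquitin ligase that removes class II molecules from the surface, fell by 1.10 in controls, a call lost with normexp background correction (-0.72, adjusted p = 0.012).

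Co-stimulatory genes did not pass in either age comparison (0 of 5 in limma, 2 and 0 at an unadjusted p of 0.05, medians 0.30 and 0.14), and CD80 was well above background on no array. In the interferon gamma list, 3 of 17 genes rose at each treatment (medians 0.34 and 0.52), beside 6.32% and 4.82% of all probes. IDO1, an interferon-induced enzyme of tryptophan breakdown, rose by 3.03 in controls (8.15-fold, adjusted p = 0.00019) and by 4.08 in BPA-exposed uteri (16.9-fold, adjusted p = 8.1e-05), and the difference between these changes did not pass (1.05, adjusted p = 0.72). With normexp the changes of IDO1 were 2.41 and 3.35. IRF1, an interferon-induced transcription factor that acts at the CIITA gene, rose by 0.94 and 1.10. GBP1 rose in controls by 0.79 and CXCL10 in BPA-exposed uteri by 1.79 (1.01 with normexp).

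Class I MHC genes were compared because they share the interferon response but are made by nearly all cells. Of 19 genes, 6 rose in controls (median 0.50), and 5 rose and 1 fell in BPA-exposed uteri (median 0.57). NLRC5, the class I counterpart of CIITA, rose by 1.54 and 1.27, HLA-E by 1.27 and 1.16, and B2M, the class I light chain, by 0.67 and 0.61. Over all the lists, 0 of 142 genes passed between BPA-exposed and control uteri at either age in limma, with 4 at GD100 and 7 at GD165 at an unadjusted p of 0.05. For the structural cell types, 1 of 7 endothelial genes rose in controls and 2 of 7 in BPA-exposed uteri (medians 0.39 and 0.50), 3 of 6 and 1 of 6 epithelial genes rose (0.73 and 0.45), and 2 of 10 and 1 of 10 uterine genes rose, with 1 of 10 lower in controls (0.23 and 0.23); beside 6.32% and 4.82% of all probes called higher, counts of 1 in 6, 7 or 10 are not a result about these lists.

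**Figure D5:**
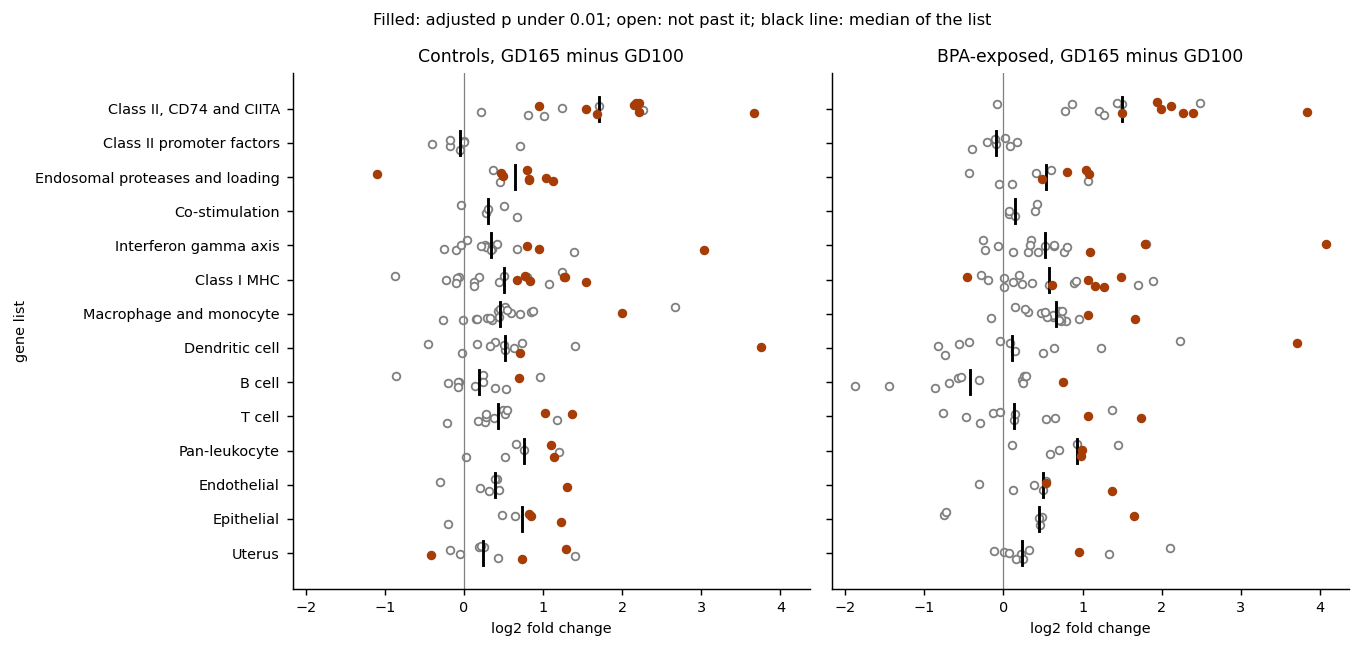
Log2 fold change between ages (x axis) of every gene in each list (y axis), in controls at left and BPA-exposed uteri at right; filled points passed an adjusted p of 0.01 and black lines are medians. The class II line lies at 1.70 and 1.50, and the highest of the other lines, that of the pan-leukocyte list, at 0.76 and 0.93.

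The genes most like CD74 within groups were sought among 13902 named genes well above background on all 17 arrays, by Pearson r of deviations from the group means. The 8 highest were F12 (0.82), EPB41L2, YWHAE, UBE1L, BBS1, DKFZP586P0123, PKN3 and SPI1 (0.78), and none of them passed between the ages at either treatment. For HLA-DQA1 they were BACE2 (0.78), RARRES2, SLC7A2, USF2, FNDC4, WDFY3, MGC33407 and UCP3 (0.72). The lists share no gene. With so many genes ranked over 17 arrays these are descriptions only.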

How the data were processed

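Per the labels and the study's methods, the authors hybridized each RNA singly to an Agilent rhesus array and deposited Feature Extraction (9.5) scanner files. Spot intensity (gProcessedSignal) is background-corrected by that software, and the deposited value table holds the same intensity unscaled. The authors' tests were an error-weighted ANOVA in Rosetta Resolver, not rerun here. From these files, log2 intensity was averaged over the 2 spots of a probe without outlier spots, set to each array's 75th percentile, and fitted with limma 3.58.1 (R 4.3.3; lmFit, eBayes) over all 17 arrays and 4 groups, with Benjamini-Hochberg adjustment over 20217 probes and a threshold of 0.01. The fit was tested on simulated data. Names came from the array descriptions (89.0% of probes named); 9 list genes had no probe. Groups came from the labels. The class II genes and all gene lists were chosen with earlier results of these data known; every class II gene is named, and other genes by largest change past the threshold, then by size. Slides served as batches. Alternatives comprised 14 settings and leaving out each of 17 animals. Promoter and protein sequences were not used here, and the number of arrays limits the precision.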

Additional observations from a re-analysis of the deposited data

Results flagged for a closer look

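In groups of 4 or 5 animals, a single animal stood apart from the rest by Dixon's test in 6 of 45 sets (15 genes in 3 groups). The test flags about 1 in 20 independent sets, but these sets share animals and related probes, so the count is not read as an excess. These were GD100 control 2 for HLA-DRA (13.06, next 12.55) and HLA-DRB3 (11.96, next 10.90), GD100 BPA-exposed animal 1 for HLA-DRB4 (9.97, next 9.20) and GD165 control 1 for HLA-DQB2 (5.14, next 1.64), each the highest. The lowest were GD100 BPA-exposed animal 2 for HLA-DPA1 (5.29, next 9.62) and GD165 control 3 for HLA-DPA1 (11.04, next 12.91). All 6 values were well above background, but for HLA-DQB2 the other GD165 controls were not. Groups of 3 were not tested, so GD165 BPA-exposed animals could not be picked out this way.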

How the results depend on the processing

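The count of class II genes past the threshold between ages was 8 in controls and 7 in BPA-exposed uteri. With slide as a fixed block it was 4 and 0, and with a replicate block it was 5 and 7, where CD74, HLA-DRB5 and HLA-DMB lost their call in controls; on the whole array that block left 958 calls in controls. Whether the replicate numbers pair the animals was not settled by the correlations of their deviations from the group means. Between same-numbered animals of different groups these ran from -0.17 to 0.16, over 0.1 in 3 of 19 pairs. In 7 of 19 pairs the value was higher than with any other number of the second group. Leaving out each animal gave 6 to 9 in controls and 6 to 8 in BPA-exposed uteri, HLA-DRB5 and HLA-DMB being the calls most often lost. All other settings gave 6 to 10 and 5 to 10, and every call in every setting was toward higher at GD165. No class II gene passed between treatments, or in the difference of changes, under any of the settings or omissions. No called value changed sign, while uncalled values did so 136 times over all settings, 129 of them in the treatment comparisons. Counts over all probes moved by over 1.5 times in controls (2328) to 1531 without scaling, 1172 with the compared groups only, 1233 with the fixed slide block, 4279 at an adjusted p of 0.05 and 1512 without GD165 control 6, and in BPA-exposed uteri (1956) to 1176, 512, 4255, 994 without GD165 BPA-exposed animal 4 and 1181 without animal 5. Without scaling, 1246 of 1635 calls in BPA-exposed uteri were higher, against 974 of 1956, and the median of all probes moved to 0.13. CIITA, HLA-DOA, HLA-DOB and HLA-DQB2 were not well above background on every array, which limits their values.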
